A study of Mus musculus with 18 samples.

Results

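Mouse glutathione genes were followed through the retinas of diabetic and normoglycemic mice given N-acetyl-L-cysteine ethyl ester (NACET), a cell-permeable cysteine precursor. The set was defined by a rule on gene symbols, chosen with earlier results of these data known. It holds the cytosolic glutathione transferases of the alpha, mu, pi, theta, omega and zeta classes with the mitochondrial kappa enzyme. It also holds the membrane enzymes Mgst2 and Mgst3, the glutathione peroxidases, the gamma-glutamyltransferases, the glutaredoxins, and Gss, Ggct and Oplah of glutathione synthesis and turnover. It comprised 43 of the 35006 gene names in the count tables, and all 43 were found in the mm9 annotation. Bulk retinal messenger RNA had been sequenced from male mice at 24 weeks of age. Untreated wild type mice on the C57BL/6J background (WT) gave 3 libraries, and wild type mice that drank NACET (WT + NACET) gave 6. Untreated Akita mice (C57BL/6-Ins2Akita/J), which are heterozygous for an Ins2 mutation that makes insulin misfold in the pancreatic beta cell and so become diabetic, gave 4 libraries, and Akita mice on NACET (Akita + NACET) gave 5. NACET had been dissolved in the drinking water at 0.33 mg/mL, a dose of 50 mg/kg/day, from 4 weeks of age onwards. The paper attributes the diabetes to toxicity of the misfolded insulin in pancreatic beta cells. What part hyperglycemia had in differences between the retinas was not tested. The labels do not say that each library came from a separate mouse, and p-values therefore measure the spread between libraries.

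Glutathione is the tripeptide thiol that buffers reactive oxygen species in most cells. It is built from glutamate, cysteine and glycine, with glutathione synthetase (Gss) adding the glycine, and cysteine supply usually limits the rate. Peroxidases spend it to reduce hydrogen peroxide and lipid hydroperoxides, transferases couple it to electrophiles, glutaredoxins use it to reduce protein disulfides, and gamma-glutamyltransferases and Ggct break it down for reuse. In the retina the light-sensitive outer segments are rich in polyunsaturated lipids, which makes lipid peroxidation, and with it the phospholipid hydroperoxide peroxidase Gpx4, of particular interest. Many of these genes are known targets of NRF2 (encoded by Nfe2l2), a transcription factor that binds antioxidant response elements.

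The peroxidases differ in the residue that does the chemistry, and the codon for it is shown because it separates the peroxidases that need the selenium machinery from those that do not. In the list the capitals mark the catalytic codon within its coding sequence (GENCODE transcripts on mm9). Gpx1, Gpx2, Gpx3 and Gpx4 carried an in-frame TGA read as selenocysteine, while Gpx5, Gpx6, Gpx7 and Gpx8 carried a cysteine codon at the aligned place.
Gpx1: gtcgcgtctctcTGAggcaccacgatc
Gpx2: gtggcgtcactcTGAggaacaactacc
Gpx3: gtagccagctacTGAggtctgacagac
Gpx4: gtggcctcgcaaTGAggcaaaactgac
Gpx5: gtggctacctatTGCggtctgacaatc
Gpx6: gtggcatccttcTGTggcctgacagct
Gpx7: gtagctagcgaaTGTggcttcacagac
Gpx8: gtggctagtgacTGCcgcttcacagac
The codon lay at chr9:108241782-108241784 in exon 1 of Gpx1, at chr11:54720758-54720760 in exon 2 of Gpx3 and at chr10:79517482-79517484 in exon 3 of Gpx4, all on the plus strand of mm9. In the minus-strand genes Gpx7 and Gpx8 it lay in exon 2, at chr4:108076035-108076037 and chr13:113835869-113835871.

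Promoter windows reach from 250 bases before to 50 bases after a start site (RefSeq, GRCm38.p6, a later build than that of the counts). They were at hand for 38 of the 43 members (56 windows) and were searched on both strands for TGACNNNGC, the core of the antioxidant response element. The core was present in 7 of the 56 windows (12.5%), against 12.4% of all 32851 windows, and belonged to Gsta3, Gstm5, Gstm7, Ggct and Ggt1. The matches on the gene's own strand in Gsta3, Gstm5, Gstm7 and Ggct are shown with 10 flanking bases, the match in capitals.
Gsta3: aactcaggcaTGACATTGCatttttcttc
Gstm5: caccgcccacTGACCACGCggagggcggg
Gstm7: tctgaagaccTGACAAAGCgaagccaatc
Ggct: tctctgtgctTGACGCTGCtggcgtggat
These matches lay at chr1:21240464-21240472, chr3:107895812-107895820, chr3:107931735-107931743 and chr6:54992854-54992862 of GRCm38.p6. No window of Gpx1, Gpx4, Gstp1, Glrx or Glrx2, the members with the clearest differences between groups below, held these letters. The AP-1 letters TGANTCA, which can overlap the previous motif, occurred in 6 of the 56 windows (10.7%) and in 7.81% of all windows. Glrx and Gstp1 held a match, and so did Gstp2, whose surrounding bases were identical to those of Gstp1.
Glrx: taggaagtacTGACTCAtaccaaaatg
Gstp1: tccaacgtgtTGAGTCAgcatccgggg
Gstp2: tccaacgtgtTGAGTCAgcatccgggg
The Glrx match lay at chr13:75839787-75839793 and the Gstp1 match at chr19:4037980-4037986. GC boxes (GGGCGG) occurred in 28 of the 56 windows (50.0%), against 35.7% of all windows. Both Gstp1 and Gpx4 were called lower in Akita + NACET than in Akita and than in WT + NACET. Their groups did not separate alike in Akita against WT or in Akita + NACET against WT. The 250 bases before the start sites of Gstp1 (chr19:4037913-4038162, minus strand) and Gpx4 (chr10:80053315-80053564, plus strand, the first of its windows with a match) are printed with GC boxes and the AP-1 match in capitals.
Gstp1: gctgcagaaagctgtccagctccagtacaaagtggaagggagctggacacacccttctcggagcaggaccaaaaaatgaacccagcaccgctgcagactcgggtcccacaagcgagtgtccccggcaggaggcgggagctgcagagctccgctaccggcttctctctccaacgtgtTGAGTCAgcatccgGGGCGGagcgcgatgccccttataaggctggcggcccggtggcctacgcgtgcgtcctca
Gpx4: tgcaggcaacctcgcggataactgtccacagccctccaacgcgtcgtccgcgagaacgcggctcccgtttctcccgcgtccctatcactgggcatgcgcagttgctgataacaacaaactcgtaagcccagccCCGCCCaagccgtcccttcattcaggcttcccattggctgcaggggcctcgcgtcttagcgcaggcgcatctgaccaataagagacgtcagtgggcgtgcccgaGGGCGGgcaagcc
Such matches describe the letters of these windows and were not tested for binding.

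Counts per gene summed to between 11495596 and 17814479 in a library. Levels are given as CPM, counts divided by the scaled size of the library, and levels of different genes are compared as CPM per kilobase of exon. Of the 43 members, 33 passed the filter on low counts and were tested. The other 10 were Gpx2, Gpx5, Gpx6, Gsta1, Gstm3, Gstp2, Gstt4, Mgst2, Ggt5 and Ggt6. Gpx5, the epididymal peroxidase, had no read in any library, which allows up to 0.170 to 0.249 CPM in a single library (3 counts, counting error only). Gstm3 had 1 read and Gpx2, the gut peroxidase, 2 reads in all 18 libraries together. Ggt5, with 78 reads, and Mgst2, with 62, were the most abundant of the untested members.

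Peroxidase and pi class transcripts led the set per kilobase. The extracellular peroxidase Gpx3 had the highest mean, 166 ± 246 CPM per kilobase (SD, n = 18), but its SD exceeded its mean. Gstp1 followed at 116 ± 18.5, and the cytosolic peroxidase Gpx1 at 73.6 ± 13.5. Gstm5, a mu class enzyme, reached 66.1 ± 9.87, the membrane enzyme Mgst3 57.5 ± 10.5 and the mitochondrial glutaredoxin Glrx5, which serves iron-sulfur cluster assembly, 50.9 ± 10.2. The SDs of Gpx1, Gstm5, Mgst3 and Glrx5 overlapped from each member to the next. Ggt7, a member of the gamma-glutamyltransferase family, stood at 37.8 ± 3.17 and Gpx4 at 37.5 ± 7.54, which did not differ beyond their spread. Gss (4.90 ± 1.98) and Ggct (2.81 ± 0.375) were well below these, and the alpha class enzyme Gsta2 was the lowest of the tested members at 0.433 ± 0.304 CPM per kilobase.

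**Figure D1:**
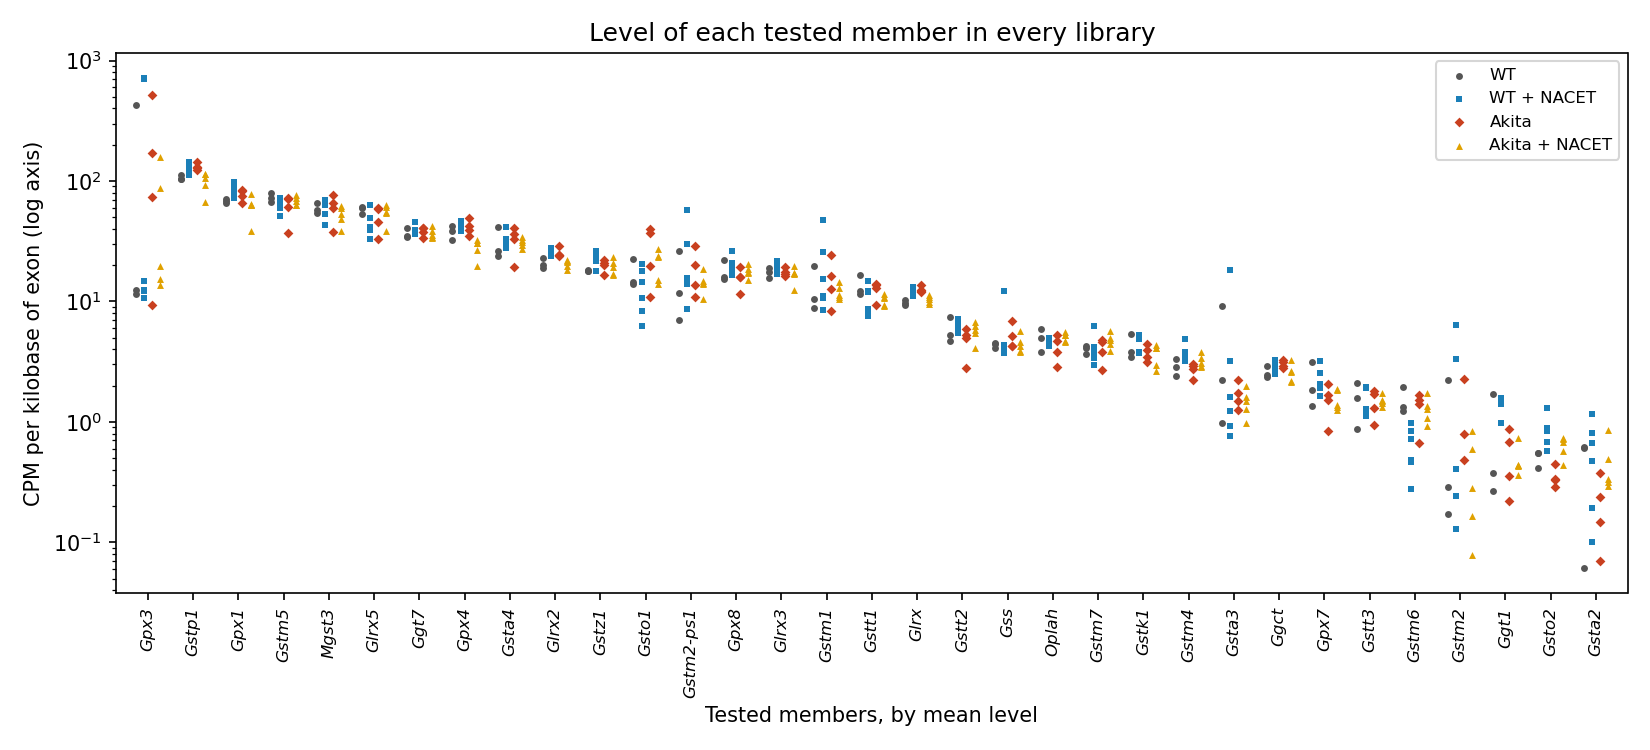
Each point is 1 library, coloured by group; the y axis is CPM per kilobase of exon on a log scale and the members are ordered by mean level. Gpx3 falls into high and low libraries within groups, while most other members stay within a narrow band; the 2 libraries with no Gstm2 read are not drawn.

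The members also differed in how evenly they were expressed. In 8 of the 33 tested members the highest library was less than 2-fold above the lowest, and Ggt7 was the steadiest, from 110 to 147 CPM. In 4 members (Gpx3, Gsta2, Gsta3 and Gstm2) the highest library was more than 10-fold above the lowest or a library was at 0. Near-identical copies limit some rows. The coding sequences of Gstp1 and Gstp2 shared 98.1% of their aligned bases, Gsta1 and Gsta2 97.9%, and Gstm1 and the 258 aligned bases of its copy Gstm2-ps1 98.1%. Reads that map to both copies cannot be assigned, and Gstm2-ps1 counts were 14.6% to 25.0% of those of Gstm1 in every library. The exons of Gss and Ggt7 overlap the opposite-strand gene Acss2, those of Gstz1 overlap Pomt2, those of Gstm5 the non-coding 4933431E20Rik and those of Oplah Exosc4. Gstm6 shares exon sequence with Gstm3 on the same strand, and the reads had been counted without regard to strand, so these values are uncertain.

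All listed cone, bipolar, Mueller glia, ganglion cell and microglia markers had reads in every library, as a retina requires. Lens crystallins and their companions summed to 18097 CPM in WT + NACET replicate 5, 2285 in Akita replicate 2 and 1014 in Akita + NACET replicate 3, and to at most 283.7 elsewhere. Pigment cell markers (Tyr, Tyrp1, Pmel, Mlana) were highest in WT + NACET replicate 5 (325 CPM) and WT replicate 2 (199 CPM). The share of reads outside annotated exons was 16.3% ± 1.24 in WT (SD, n = 3), 12.7% ± 2.74 in WT + NACET (n = 6), 11.5% ± 1.83 in Akita (n = 4) and 16.4% ± 2.11 in Akita + NACET (n = 5). Rod RNA was followed by the summed CPM of the phototransduction genes Gnat1, Pde6b and Sag, a sum chosen after the data were seen. Its lowest, median and highest values were 22528, 25181 and 31914 CPM in WT, 27846, 30487 and 38117 in WT + NACET, 29758, 34116 and 42348 in Akita, and 20480, 25156 and 27522 in Akita + NACET. In bulk tissue, fewer cells of a type and less RNA per cell cannot be told apart.

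The first comparison asked what diabetes changed in the absence of treatment. In untreated Akita retinas 2 glutaredoxins rose against WT, and no other member passed the test. They were 2 of 33 tested members (6.06%), both higher, where 7.64% of the 16183 genes tested were called and 3.96% were called higher. Glrx, the cytosolic glutaredoxin (chr13:75977316-75987599 on mm9), had 13.1, 13.9 and 12.5 CPM in the WT libraries and 16.8, 16.3, 18.5 and 16.2 CPM in the Akita libraries. All 4 Akita values lay above the WT values, and the difference was 0.36 ± 0.11 on the log2 scale (standard error, adjusted p = 0.042). Glrx2, the mitochondrial and nuclear glutaredoxin (chr1:145586159-145596806), had 105, 99.5 and 120 CPM in WT and 128, 126, 128 and 152 CPM in Akita. Its groups did not overlap either, and the log2 fold change was 0.30 ± 0.09 (adjusted p = 0.046). Both calls were near the threshold and were lost when any of Akita replicate 1, 3 or 4, or WT replicate 1 or 2, was left out. Gstp1 (chr19:4035411-4037921), the transferase of the pi class, had 78.3, 78.1 and 83.9 CPM in WT and 96.6, 97.9, 93.2 and 108 CPM in Akita. Its groups were also apart, but the adjusted p was 0.148 for a log2 fold change of 0.30 ± 0.13. Gstm5 (log2 fold change -0.27 ± 0.16, adjusted p = 0.299) and the omega class enzyme Gsto2 (-0.54 ± 0.33, adjusted p = 0.303) came next by p. Groups did not overlap in 3 members, against 23.2% of all genes, and the median log2 fold change of the 33 members was 0.01, with -0.01 over all genes. Beside these differences, the rod sum overlapped between the groups but had the higher median in Akita, and the 3 amacrine markers found (Gad1, Slc6a9, Slc32a1) were at 176 to 254 CPM in Akita against 285 to 391 in WT, without overlap. The part of either was not tested. The share of reads outside exons did not overlap between these groups, at 9.67 to 13.3% in Akita and 14.9 to 17.1% in WT. A fit with that share in the model is given below.

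The next comparison took NACET within diabetic mice. Gpx4, Gstp1 and Glrx2 fell in Akita + NACET retinas against untreated Akita, by between 0.31 and 0.57 on the log2 scale. These were 3 of 33 members (9.09%), all lower, where 9.65% of all genes were called and 5.14% were called lower. Gpx4 (chr10:79509911-79519184), the enzyme that reduces phospholipid hydroperoxides in membranes and so restrains ferroptosis, had 66.0, 58.7, 81.9 and 71.1 CPM in Akita and 51.2, 44.9, 53.7, 51.4 and 33.1 CPM in Akita + NACET. Every treated value was below every untreated one, and Gpx4 fell by 0.57 ± 0.12 on the log2 scale (adjusted p = 0.019). Gstp1 had 86.5, 69.1, 85.4, 79.8 and 50.6 CPM in Akita + NACET, all below the Akita values given above, a difference of -0.41 ± 0.12 on the log2 scale (adjusted p = 0.034). Glrx2 had 113, 104, 114, 115 and 96.4 CPM in Akita + NACET, again without overlap, and fell by 0.31 ± 0.08 (adjusted p = 0.027). Glrx had 14.7, 12.8, 15.2, 13.2 and 14.0 CPM under treatment. It too lay below all untreated Akita libraries, but missed the threshold at -0.28 ± 0.09 (adjusted p = 0.060). Gsto2 pointed the other way, with 0.771, 0.579, 0.565 and 0.497 CPM in Akita and 0.758, 1.24, 1.28, 0.994 and 1.18 CPM in Akita + NACET (log2 fold change 0.84 ± 0.29, adjusted p = 0.063). Without Akita replicate 4 no member was called, and without Akita + NACET replicate 2 or 5 only Gpx4 was. Groups did not overlap in 4 members, against 14.1% of all genes, and the median log2 fold change of members was -0.07, with -0.0032 over all genes. In the same comparison the rod sum was lower without overlap, while amacrine markers (269 to 330.0 CPM in Akita + NACET) and red cell markers (35.7 to 97.2 CPM against 11.9 to 33.9 in Akita) were higher without overlap, and their part was not tested.

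**Figure D2:**
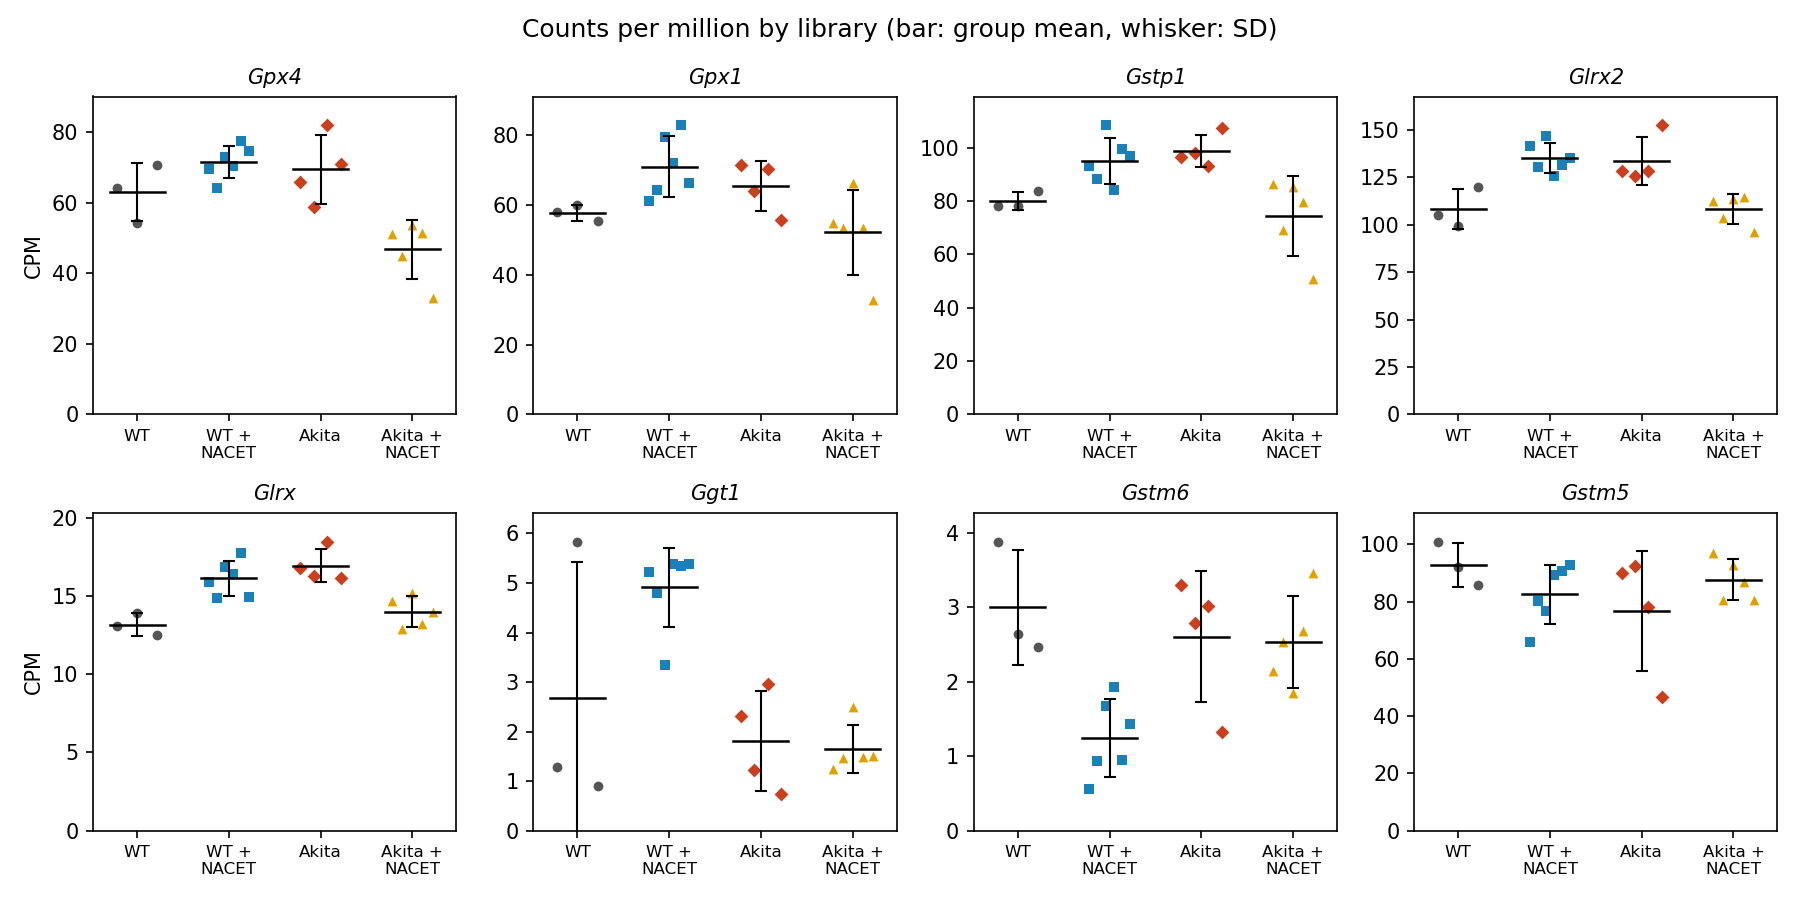
CPM of 8 members in every library (points), with the group mean (bar) and SD (whisker); the y axes start at 0. Gpx4 lies between 33.1 and 53.7 CPM in the 5 Akita + NACET libraries and at 54.4 CPM or above in all others, and Ggt1 lies between 3.34 and 5.39 CPM in the 6 WT + NACET libraries.

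In normoglycemic mice NACET left no member past the threshold, at a rate of 1.48% over all genes. By unadjusted p, 6 of 33 members were under 0.05, against 19.5% of all genes, and DESeq2 on the same counts called Glrx2 and Gstm6. Gstm6, a mu class transferase (chr3:107741765-107746667), had 3.88, 2.64 and 2.47 CPM in WT, and 0.552, 1.19 and 1.93 CPM as the lowest, median and highest of the 6 WT + NACET libraries. The groups were apart at a log2 fold change of -1.26 ± 0.32 (adjusted p = 0.051). Glrx2 ranged from 126 to 147 CPM in WT + NACET with a median of 133, above all WT libraries, at a log2 fold change of 0.32 ± 0.09 (adjusted p = 0.058). Glrx, from 14.9 to 17.7 CPM with a median of 16.1, was likewise above every WT library (0.29 ± 0.10, adjusted p = 0.124). Gstz1, the zeta class enzyme that also isomerizes maleylacetoacetate in tyrosine breakdown, had 29.9, 30.2 and 29.4 CPM in WT and from 29.7 to 43.8 CPM with a median of 38.1 in WT + NACET (0.35 ± 0.13, adjusted p = 0.145). Gsto2 had 0.718, 0.959 and 0.963 CPM in WT, below all WT + NACET libraries (median 1.47, highest 2.27 CPM), and did not pass the test (0.76 ± 0.29, adjusted p = 0.158). Groups did not overlap in 6 members, against 11.5% of all genes. The median log2 fold change of members was 0.18, with -0.01 over all genes. The 3 astrocyte markers (Gfap, Pax2, S100b) summed to 136 to 290.1 CPM in WT + NACET and 45.0 to 92.6 CPM in WT. Gfap, which the paper counts among markers of neuroinflammation and gliosis, made up most of that sum. Over all libraries it had 25.9 to 269 CPM, with at most 19.8 for S100b and 1.24 for Pax2. The rod sum overlapped with a higher median in WT + NACET. The part of these sums was not tested.

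The genotypes were also compared under treatment. In Akita + NACET against WT + NACET, Gpx4, Glrx2, Ggt1, Gpx1 and Gstp1 were lower and Gstm6 was higher. These 6 of 33 members (18.2%) stood beside 13.3% of all genes called, and the 5 lower ones beside 7.26% of all genes called lower. Gpx4 ranged from 64.2 to 77.5 CPM with a median of 71.7 in WT + NACET, above all 5 Akita + NACET libraries, and was lower in the latter by a log2 fold change of -0.61 ± 0.11 (adjusted p = 0.0023). Glrx2 differed by -0.32 ± 0.07 (adjusted p = 0.00815) without overlap. Ggt1, the surface enzyme that starts the breakdown of extracellular glutathione (chr10:75024349-75048945), had 1.24, 1.47, 2.49, 1.49 and 1.502 CPM in Akita + NACET and from 3.34 to 5.39 CPM with a median of 5.28 in WT + NACET. These groups did not overlap, at a log2 fold change of -1.58 ± 0.39 (adjusted p = 0.015). Untreated WT libraries, however, had 1.29, 5.84 and 0.903 CPM of Ggt1, so that the WT group spanned both levels. The sum of 4 pigment epithelium markers (Rpe65, Best1, Ttr, Lrat) was 148 to 613 CPM in WT + NACET, 259.8 in the high WT library, and 32.9 to 313.9 in Akita + NACET, and its part in the Ggt1 difference was not tested.

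Gpx1 (chr9:108241607-108242671), the main cytosolic peroxidase, had 54.9, 53.6, 66.3, 53.4 and 32.7 CPM in Akita + NACET and from 61.3 to 82.9 CPM with a median of 69.2 in WT + NACET. The ranges overlapped in 1 Akita + NACET library, and the log2 fold change was -0.45 ± 0.13 (adjusted p = 0.028). Gstp1 ranged from 84.1 to 108 CPM with a median of 95.0 in WT + NACET, overlapped with 2 Akita + NACET libraries, and differed by -0.35 ± 0.11 (adjusted p = 0.032). Gstm6 had 2.14, 2.53, 1.85, 2.67 and 3.46 CPM in Akita + NACET, and its log2 fold change was 1.02 ± 0.28 (adjusted p = 0.024). Without Akita + NACET replicate 5, or without WT + NACET replicate 5, only Ggt1, Glrx2 and Gpx4 were called. Groups did not overlap in 3 members, against 8.01% of all genes. Of the 33 members 26 had a log2 fold change below 0, and their median was -0.23, with -0.00015 over all genes. Several marker sums were also lower in Akita + NACET without overlap. The astrocyte list, mostly Gfap, had 34.4 to 102 CPM against 136 to 290.1, and microglia markers 15.7 to 25.6 against 29.4 to 39.5. Cone markers had 1675 to 2116 against 2122 to 3401, and the rod sum given above was lower too. The part of these sums was not tested.

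Treated diabetic retinas were then set against untreated WT retinas, to see what difference was left. No member passed the test, as with nearly all genes (0.00618% called). An unadjusted p under 0.05 was reached by 1 of 33 members, against 4.63% of all genes, and DESeq2 called none. This member was Gpx4, with 64.3, 54.4 and 70.8 CPM in WT, all above the Akita + NACET libraries, at a log2 fold change of -0.43 ± 0.13 (unadjusted p = 0.0036, adjusted p = 0.920). Gstt1, a theta class enzyme, had no overlap either, with 18.7, 25.4 and 17.8 CPM in WT and 16.4, 16.6, 17.6, 14.4 and 14.0 CPM in Akita + NACET (-0.38 ± 0.19, adjusted p = 0.9996). The endoplasmic reticulum peroxidase Gpx7 (-0.45 ± 0.29), Gsta3 (-1.46 ± 0.96) and Ggt1 (-0.67 ± 0.47) followed, with wide errors. In Ggt1 the sign rested on WT replicate 2, without which the log2 fold change was 0.59. Groups did not overlap in 2 members, against 4.17% of all genes, and the member median was -0.04, with -0.01 over all genes. Mueller glia markers were lower without overlap in Akita + NACET (1149 to 1412 CPM against 1444 to 1719) and red cell markers higher (35.7 to 97.2 against 12.8 to 28.5), and their part was not tested.

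**Figure D3:**
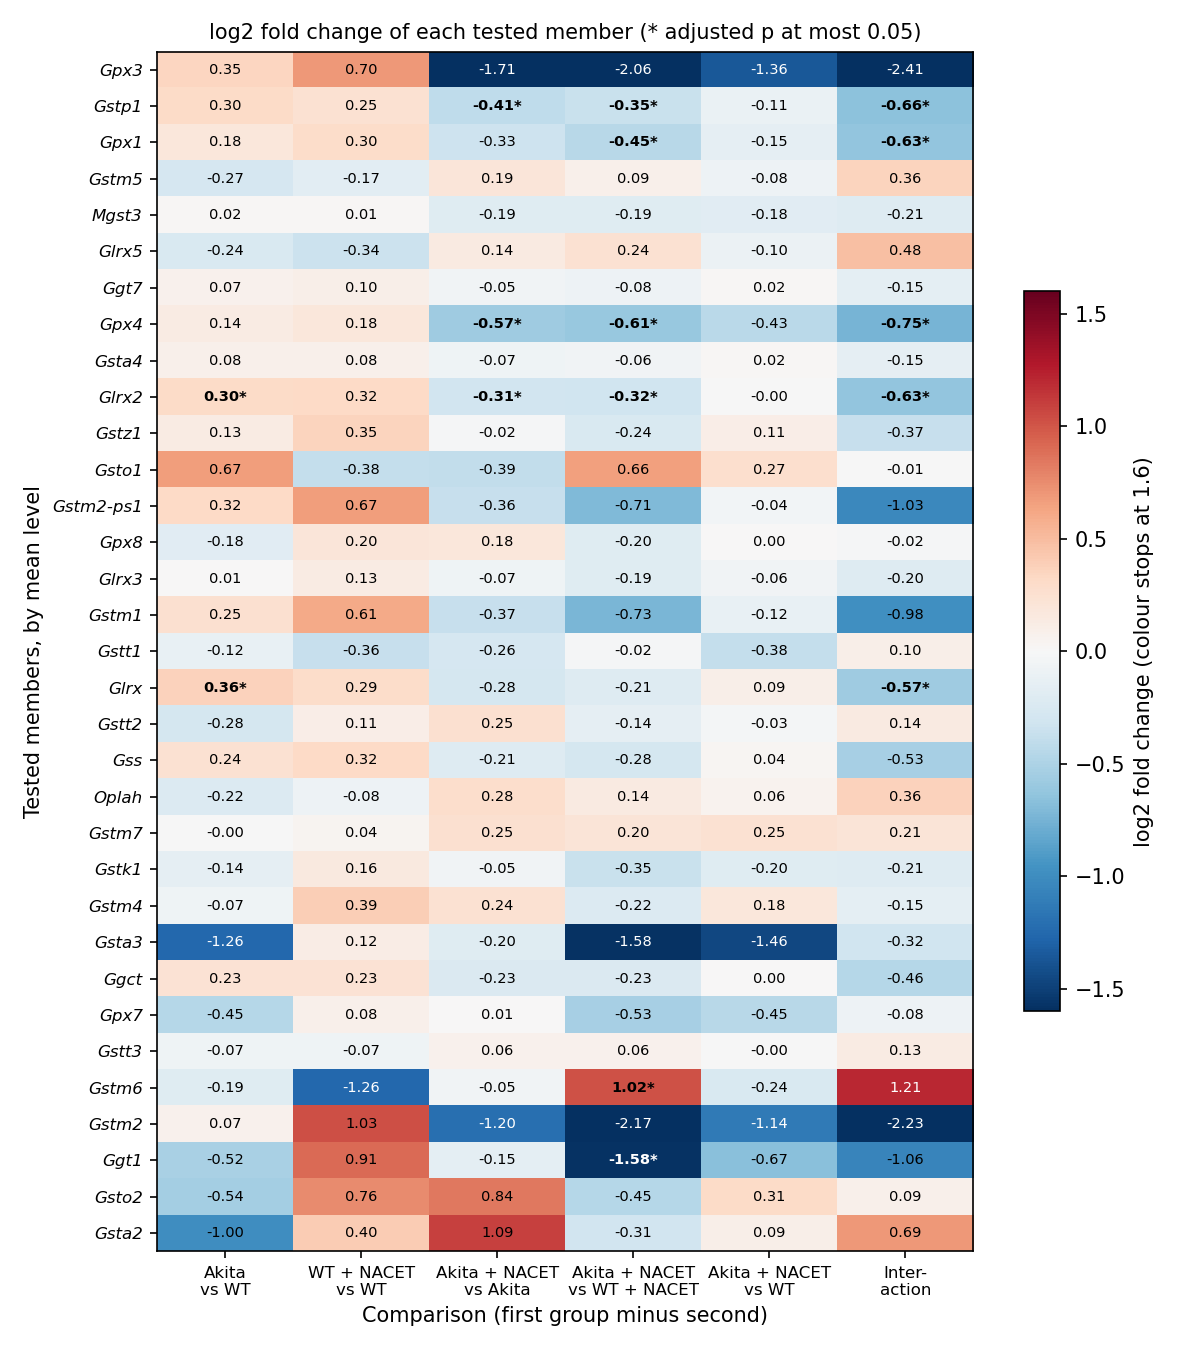
Log2 fold change of each tested member (rows, by mean level) in each comparison (columns), with an asterisk where the adjusted p was at most 0.05. Calls gather in Gstp1, Gpx1, Gpx4, Glrx2 and Glrx, and the column of Akita + NACET against WT has none; Gpx3 (-2.06) and Gstm2 (-2.17) have the largest differences between the treated groups without a call.

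Whether NACET acted differently by genotype was tested as an interaction, the NACET effect in Akita minus that in WT. Glrx2, Gpx4, Glrx, Gstp1 and Gpx1 differed, all with a negative term, since the mean was higher in WT + NACET than in WT and lower in Akita + NACET than in Akita. These 5 of 33 members (15.2%) were a smaller share than the 20.3% of all genes called, while 10.2% of all genes were called with a negative term. The term was -0.63 ± 0.12 for Glrx2 (adjusted p = 0.0027), -0.75 ± 0.18 for Gpx4 (adjusted p = 0.0088), -0.57 ± 0.14 for Glrx (adjusted p = 0.0090), -0.66 ± 0.17 for Gstp1 (adjusted p = 0.013) and -0.63 ± 0.21 for Gpx1 (adjusted p = 0.038). Group means of Glrx2 were 108 ± 10.6 CPM in WT (SD, n = 3), 135 ± 7.73 in WT + NACET (n = 6), 134 ± 12.5 in Akita (n = 4) and 108 ± 7.95 in Akita + NACET (n = 5). The mean was therefore close to the untreated WT value in treated diabetic mice, and nearly equal in the remaining pair of groups. In the same sequence of groups Gstp1 had 80.1 ± 3.29, 95.0 ± 8.62, 98.8 ± 6.13 and 74.3 ± 14.9 CPM, highest in Akita and lowest in Akita + NACET. Gpx1 had 55.4 to 60.0 CPM in WT and 71.6, 64.0, 70.3 and 55.9 CPM in Akita, and its groups overlapped in untreated mice. The call for Gpx1 was lost without any of 9 libraries, among them each WT library, while leaving out any single library kept the other 4 calls. Of the 33 terms 23 were below 0, with a median of -0.20, against 0.0042 over all genes. The median of the rod sum had the same crossed pattern, higher in WT + NACET than in WT (30487 against 25181 CPM) and lower in Akita + NACET than in Akita (25156 against 34116), and its part in these terms was not tested. The comparisons share libraries and are not independent of each other.

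The same 5 members ran with the share of reads outside exons. By group means, that share was lower in Akita and WT + NACET, where the members were higher, than in WT and Akita + NACET. Akita + NACET replicate 5 had the highest share, 19.8%, and the lowest Gpx4, Gpx1, Gstp1 and Glrx2 of all 18 libraries (33.1, 32.7, 50.6 and 96.4 CPM), but a Glrx level (14.0 CPM) within its group. WT + NACET replicate 6 had the lowest share, 9.55%, with 74.6 CPM of Gpx4 and 96.9 CPM of Gstp1. The share ran from 9.67 to 13.3% in Akita and from 14.3 to 19.8% in Akita + NACET, without overlap. In WT it ran from 14.9 to 17.1%, also without overlap with Akita. In WT + NACET it ran from 9.55 to 16.5% and overlapped with every other group. With this share added to the model, which cannot separate it from the group differences, no member was called in any of the 6 comparisons. The Gpx4 difference between Akita + NACET and Akita then fell to -0.24 (adjusted p = 0.633) and its interaction term to -0.17 (adjusted p = 0.805), while the difference between Akita + NACET and WT + NACET was -0.37 (adjusted p = 0.062). For Glrx the interaction term stayed at -0.46 (adjusted p = 0.494). Without the 5 libraries richest in pigment cell markers no interaction call was left, with terms between -0.51 and -0.63. That fit lacked WT replicate 2, from a group of 3, and WT + NACET replicates 1 and 5. Akita replicate 3 and Akita + NACET replicate 2 were left out as well. Why the calls were lost was not tested. Without the 3 lens-rich libraries all 5 calls were kept.

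**Figure D4:**
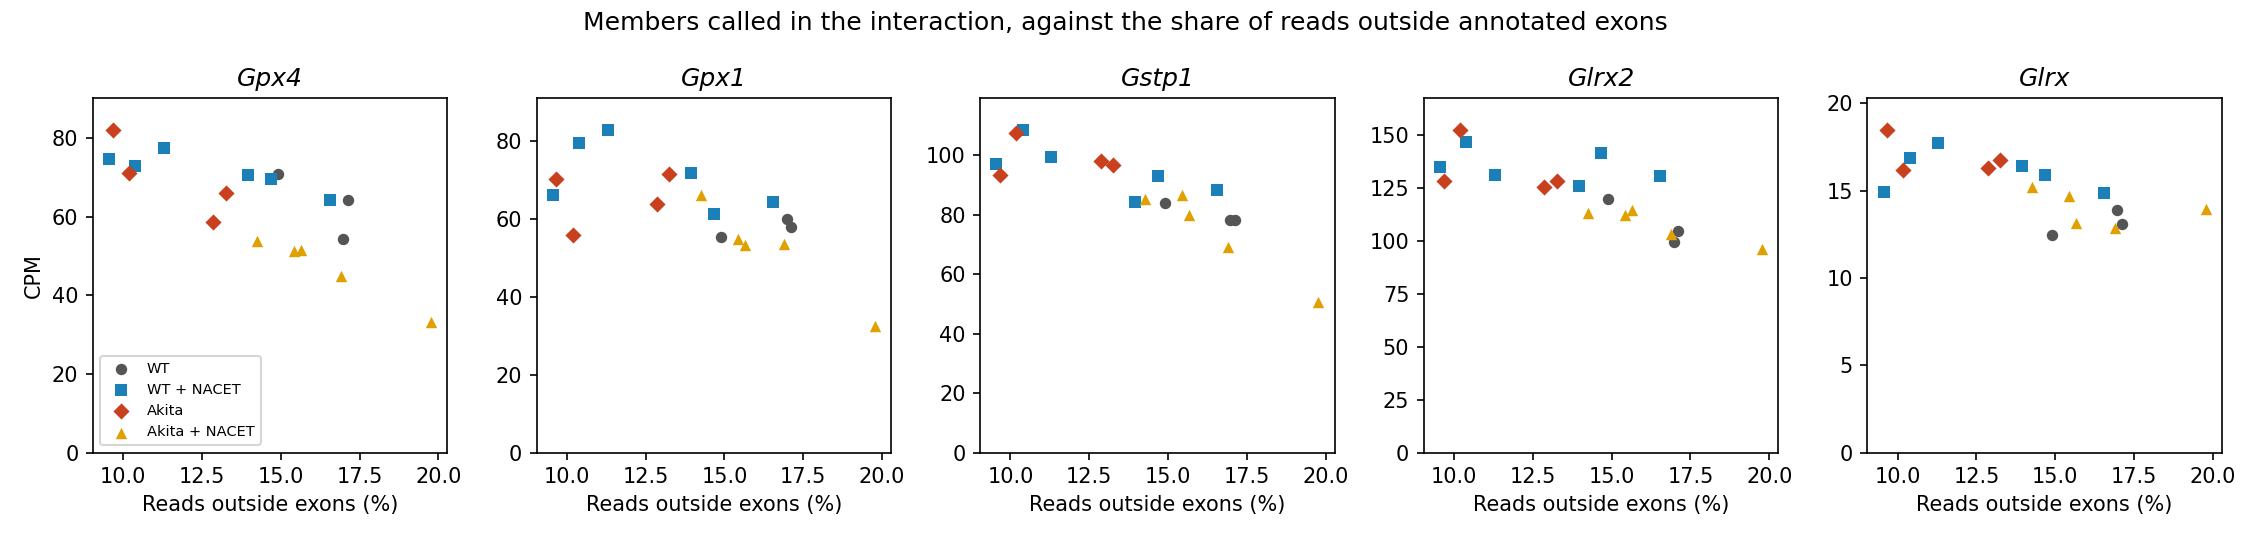
CPM (y axis, from 0) of the 5 members called in the interaction against the percent of reads outside annotated exons (x axis), 1 point per library coloured by group. Gpx4 goes from 81.9 CPM at 9.67% to 33.1 CPM at 19.8%.

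Gpx3, secreted into plasma and extracellular fluids, varied the most and not by group. WT libraries had 21.0, 778 and 22.7 CPM, Akita libraries 307, 134, 937 and 16.9 CPM, and Akita + NACET libraries 24.9, 36.0, 286, 159 and 28.1 CPM. In WT + NACET the lowest, median and highest were 19.3, 24.6 and 1310 CPM. High and low libraries occurred in every group, and no comparison called Gpx3, with a log2 fold change of -2.06 between Akita + NACET and WT + NACET and an interaction term of -2.41. The 4 highest libraries, WT + NACET replicates 1 and 5, Akita replicate 3 and WT replicate 2, were also the 4 with the highest pigment cell marker sums (47.0, 325, 32.9 and 199 CPM). Akita replicate 1, with 307 CPM of Gpx3, had a pigment marker sum of only 8.91 CPM. Akita + NACET replicate 2 had 36.0 CPM of Gpx3 at a sum of 30.4 CPM, so the order was not the same throughout. The pigment epithelium sum was highest in WT + NACET replicates 4, 6 and 2 (613, 488 and 429 CPM), none of them among the 4 highest Gpx3 libraries. The part of such cells was not tested.

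Some transferases shared these libraries. The alpha class enzyme Gsta3 had 25.6 CPM in WT + NACET replicate 5 and 12.6 CPM in WT replicate 2, and from 1.06 to 4.48 CPM in the other 16. Gstm1, a major mu class enzyme of liver, was highest in WT + NACET replicate 5 (65.6 CPM), WT + NACET replicate 1 (36.0 CPM) and Akita replicate 3 (34.0 CPM) and at most 27.6 CPM elsewhere. Gstm2 was highest in WT + NACET replicates 5 and 1 (10.8 and 5.59 CPM) and had no read in WT + NACET replicate 3 or Akita replicate 4. None of these was called in any comparison. The 3 libraries with the most lens RNA had the highest Gss, in the same order. It had 70.1 CPM in WT + NACET replicate 5, 39.3 CPM in Akita replicate 2 and 32.2 CPM in Akita + NACET replicate 3, and from 21.2 to 29.6 CPM in the remaining 15. The lens is known for a high glutathione content, and the part of lens RNA in these Gss values was not tested.

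**Figure D5:**
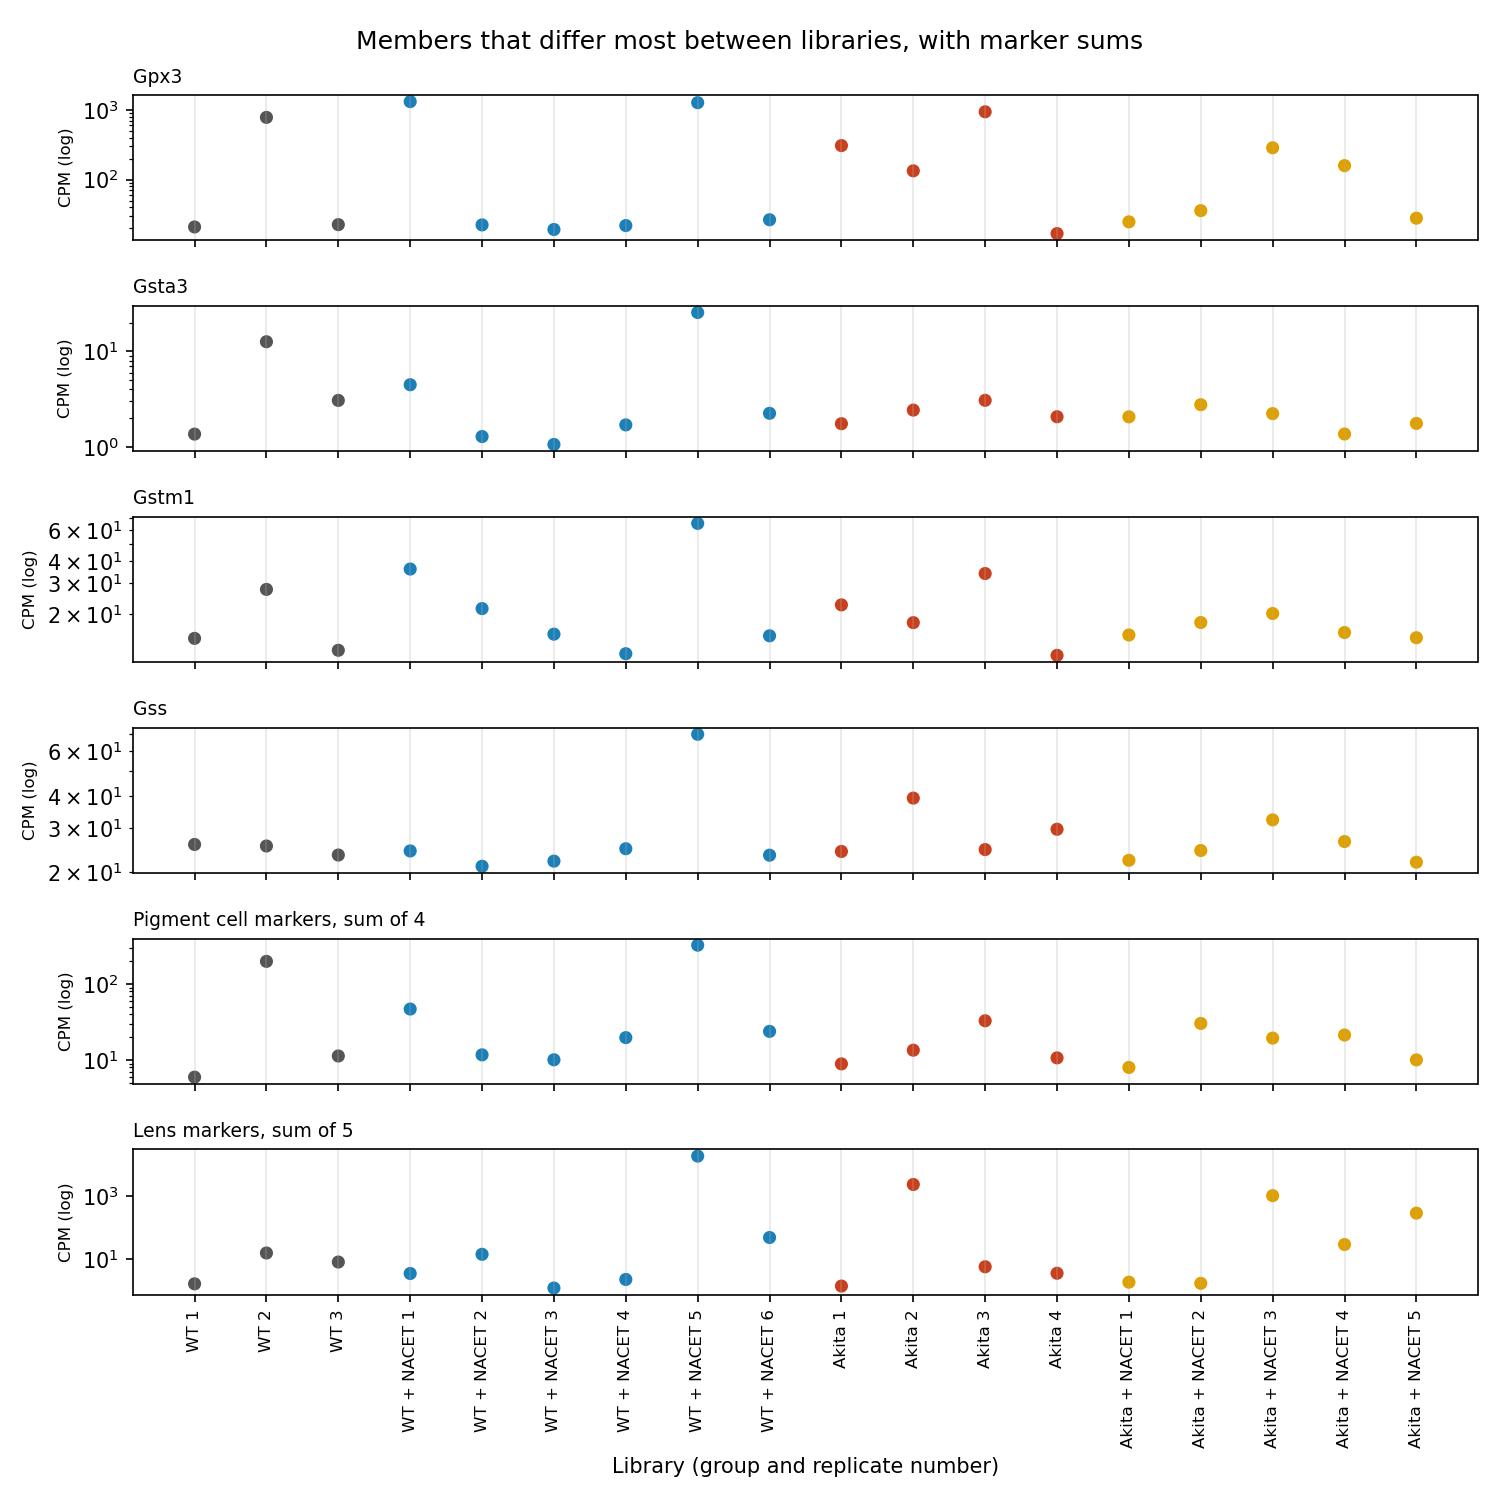
CPM per library (log axes) of Gpx3, Gsta3, Gstm1 and Gss, with the summed CPM of 4 pigment cell markers and 5 lens markers, coloured by group. Gpx3 reaches 778 to 1310 CPM in libraries of 3 groups, and the Gss maximum of 70.1 CPM is the library with 18097 CPM of lens markers.

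Gsto1, an omega class enzyme with glutaredoxin-like activity, was variable in a different way. It had 39.1, 73.2, 78.0 and 21.5 CPM in Akita, 28.6, 44.4 and 27.5 CPM in WT, and 12.2 to 40.1 CPM with a median of 24.8 in WT + NACET. In Akita + NACET it had 27.3, 45.6, 46.5, 29.7 and 53.2 CPM. Akita replicates 2 and 3 stood highest, and no comparison called the gene. Gstm5 ranged from 65.7 to 101 CPM in 17 libraries and was 46.8 CPM in Akita replicate 4. This library also had the lowest Gsta4 (18.3 CPM), Mgst3 (41.2 CPM), Gpx8 (11.6 CPM), Oplah (16.1 CPM) and Gpx3 (16.9 CPM) and the highest Glrx2 (152 CPM). It had the highest rod sum of all libraries (42348 CPM) and the lowest Mueller glia (767 CPM) and ganglion cell (441 CPM) marker sums, and the part of these was not tested. Steadier were Ggt7, with group means from 118 to 127 CPM, Glrx3, a cytosolic iron-sulfur protein, with 27.5 to 31.4 CPM, and Ggct, which releases 5-oxoproline from gamma-glutamyl dipeptides, with 11.3 to 13.4 CPM. Oplah, the 5-oxoprolinase that returns this product to glutamate, had group means from 23.3 to 28.4 CPM. Mgst3, which also acts on leukotriene and lipid peroxide substrates, had 57.3 to 65.5 CPM. None of Ggt7, Glrx3, Ggct, Oplah or Mgst3 was called in any comparison, and neither was any member of the alpha or theta class.

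Of 30 further glutathione and thioredoxin pathway genes 27 were tested. This list was chosen with earlier results of these data known. Its shares beside those of all genes therefore describe the list only and are no test of the pathway. In Akita against WT, 2 of 27 rose (7.41%), close to the 7.64% of all genes called. They were Glo1, the glyoxalase that uses glutathione to clear methylglyoxal (log2 fold change 0.56 ± 0.14, adjusted p = 0.024), and Nfe2l2 (0.47 ± 0.12, adjusted p = 0.027). In Akita + NACET against Akita, 6 of 27 fell (22.2%) and none rose, where 9.65% of all genes were called and 5.14% were called lower. They were led by Esd, an esterase that hydrolyzes S-formylglutathione (-0.42 ± 0.10, adjusted p = 0.022), Hagh, the second glyoxalase (-0.39 ± 0.10, adjusted p = 0.028), Glo1 (-0.44 ± 0.12, adjusted p = 0.032) and the pentose phosphate enzyme G6pdx (-0.31 ± 0.09, adjusted p = 0.041). The remaining pair was Nfe2l2 and the thioredoxin Txn1. In WT + NACET against WT and in Akita + NACET against WT none of 27 was called, with 4 and 1 under an unadjusted p of 0.05. Between the treated groups 3 of 27 (11.1%) were lower in Akita + NACET, Esd, Txn1 and Alox5ap, beside 13.3% of all genes called and 7.26% called lower. The interaction was called in 9 of 27 (33.3%), all with a negative term, where 20.3% of all genes were called and 10.2% were called with a negative term. The smallest p belonged to Esd (-0.71 ± 0.15, adjusted p = 0.0049) and Glo1 (-0.80 ± 0.18, adjusted p = 0.0063). The rate-limiting synthesis enzyme held no call. Its subunits Gclc and Gclm had group means of 5.61 to 6.73 and 40.3 to 44.1 CPM, and glutathione reductase, Gsr, had 35.2 to 40.2 CPM. As for the members, the share of reads outside exons was higher and the rod sum lower in Akita + NACET than in Akita, both without overlap. Their part in the calls of these 27 genes was not tested. Alternative fits, such as those with single libraries left out, are not reported for these genes.

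Genes of selenocysteine insertion, with the selenium carrier Sepp1 and its receptor Lrp8, were read beside the selenium-dependent peroxidases. They too were chosen with earlier results of these data known. Of 9 tested, Sephs2, which makes the selenium donor and is itself a selenoprotein, was lower in Akita + NACET than in Akita (-0.33 ± 0.10, adjusted p = 0.043) and than in WT + NACET (-0.27 ± 0.09, adjusted p = 0.049), with an interaction term of -0.62 ± 0.15 (adjusted p = 0.0080). Sephs2 had 52.2, 49.8, 52.4 and 74.9 CPM in Akita, highest in replicate 4, and from 42.5 to 49.3 CPM in Akita + NACET. Fits with single libraries left out are not reported for these 9 genes. Trnau1ap, which associates with the selenocysteine transfer RNA, was lower in Akita + NACET than in WT + NACET (-0.34 ± 0.09, adjusted p = 0.018). The other 7 were called in no comparison. In Akita + NACET against Akita 1 of 9 (11.1%) was called, beside 9.65% of all genes called and 5.14% called lower. Between the treated groups it was 2 of 9 (22.2%), beside 13.3% called and 7.26% called lower. For the interaction it was 1 of 9 (11.1%), beside 20.3% called and 10.2% with a negative term. None of the 9 was called in Akita against WT, where 7.64% of all genes were. There 2 of 9 were under an unadjusted p of 0.05, beside 4377 of all 16183 genes. The part of the read share outside exons in these differences was not tested. Among the peroxidases, the called ones were the selenium-dependent Gpx1 and Gpx4, while Gpx3 (selenium-dependent) and Gpx7 and Gpx8 (cysteine) were called in none. Gpx7 and Gpx8 had lower means, 2.39 and 18.4 CPM, against 62.4 for Gpx1 and 62.8 for Gpx4. Gpx1 lost its call in 11 alternative fits for the interaction and in 8 between the treated groups. A part of selenium dependence was not tested.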

How the data were processed

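Total retinal RNA had been purified with EuroGOLD TriFast and made into poly(A) libraries (TruSeq RNA v2), which do not keep the strand, and sequenced single end. The authors checked reads with FastQC, aligned them to mm9 with TopHat2 2.1.0 over Bowtie, and counted reads per gene with HTSeq 0.11.2 over exons, without strand. The deposited values are raw counts per gene symbol, 1 table per library. Here 206 rRNA genes (0.977% of counts on average) and the 1 entry without a name (0.00544%) were removed. An average of 9.04% of reads had been set aside by the authors as not uniquely placed and 1.18% as ambiguous, which lowers genes with near-identical copies. The depth, 11495596 to 17814479 counts per library, sets the precision of low genes.

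Groups came from the labels. All 18 libraries entered a single edgeR 4.0.16 quasi-likelihood fit (R 4.3.3, TMM scaling, default filter with a minimum count of 10 and a total of 15, robust) over 16183 genes. Genes were called at a Benjamini-Hochberg adjusted p of at most 0.05 over all genes tested. CPM use TMM-scaled library sizes. No pair of libraries of a group agreed within sampling noise (chi-square per gene of 4.82 or more). Scripts were tested on simulated data. Named members were those called in any comparison with a mean of at least 1 CPM, those of smallest p up to 5 per comparison, and the 8 of highest level per kilobase. Members and lists were chosen with earlier results of these data known. Alternatives were DESeq2 1.42.0 size factors, DESeq2 itself, no filter, only the groups compared, a replicate block, the percent of reads outside exons in the model, and each library left out. Fits without lens-rich libraries (over 1000 CPM of lens markers) or without libraries with over 30 CPM of pigment cell markers were added after the data were seen. The amacrine marker Tfap2a was not used here. 1 listed marker gene is not reported here. The rod sum was added after the data were seen. Marker lists are given where the groups' ranges did not overlap or a library stood apart. The rod sum and the pigment epithelium sum are also given where ranges overlapped. Other lists with overlapping ranges are not described, among them pericyte markers in WT + NACET against WT (medians 73.6 and 43.3 CPM). Tests of the other pathway genes follow the same fit.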

Additional observations from a re-analysis of the deposited data

Results flagged for a closer look

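Over 99 combinations of a tested member and a group of 4 to 6 libraries, 7 had a library far from the rest of its group by Dixon's criterion, where chance gives about 1 in 20. In WT + NACET, Ggt1 was low in replicate 3 (3.34 CPM), Ggt7 and Gstm4 were high in the same replicate (147 and 8.27 CPM), and Gss and Gsta3 were high in replicate 5 (70.1 and 25.6 CPM). Ggt1 was high in Akita + NACET replicate 3 (2.49 CPM), and Glrx2 was high in Akita replicate 4 (152 CPM).

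The NACET effect differed between Akita and WT, by the interaction term of the edgeR fit, in Glrx (-0.57, adjusted p = 0.0090), Glrx2 (-0.63, adjusted p = 0.0027), Gpx1 (-0.63, adjusted p = 0.038), Gpx4 (-0.75, adjusted p = 0.0088) and Gstp1 (-0.66, adjusted p = 0.013). The share of reads outside exons moved with these members, and with it in the model no call was left. That fit cannot separate the share from the group differences. The rod sum of Gnat1, Pde6b and Sag also moved with these members, and its part was not tested.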

How the results depend on the processing

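A fit with the percent of reads outside exons in the model cannot separate it from the group differences. In that fit the count of members called was 0 in every comparison. For Akita against WT (2 in the reported fit) it was also 0 with no filter on low counts, with only the groups compared, with the replicate block, without the lens-rich libraries and without the libraries rich in pigment cell markers, and 0 to 2 with single libraries left out. For Akita + NACET against Akita (3) it was 1 with only the groups compared, 1 with the replicate block, 0 without the libraries rich in pigment cell markers and 0 to 4 with single libraries left out. For WT + NACET against WT (0) it was 2 with DESeq2 (Glrx2 and Gstm6), 1 with no filter (Gstm6), 1 without the libraries rich in pigment cell markers (Ggt1) and 0 to 1 with single libraries left out. For Akita + NACET against WT + NACET (6) it was 3 with the replicate block, 2 without the libraries rich in pigment cell markers and 3 to 6 with single libraries left out. For the interaction (5) it was 0 without the libraries rich in pigment cell markers and 4 to 6 with single libraries left out. For Akita + NACET against WT it was 0 in all fits. The cause of these changes was not tested.

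Over 31 results for single members and 564 alternative fits, 465 kept their direction and side of the threshold, 89 lost the call, 8 gained it and 2 turned sign. Both were Ggt1 in Akita + NACET against WT, at 0.59 without WT replicate 2 (from -1.09 to 0.59 with single libraries left out) and 0.63 without the libraries rich in pigment cell markers. Of 22 pairs of libraries with the same replicate number, 4 had deviations correlated above 0.1 (range -0.33 to 0.34), so the numbers were not taken to pair the samples. DESeq2 size factors moved the median of all genes by at most 0.011 on the log2 scale. Depth limits the 10 untested members.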
